A study of Mus musculus with 6 samples.

Results

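The genes described here encode the proton pump of the lysosome, its cathepsin proteases and the glycoproteins and channels of its membrane. They were taken by symbol from the deposited expression table: names starting with ATP6V or ATP6AP, the cathepsins (CTS and 1 letter), LAMP1 to LAMP5, MCOLN1 to MCOLN3, TPCN1, TPCN2 and the CLN genes. This gave 50 of the 14915 rows. The values are TPM, a transcript abundance scaled to gene length and to the library total, in 6 RNA-seq libraries labelled as B16F10, a mouse melanoma cell line. There were 3 wild-type libraries (genotype WT) and 3 libraries of cells with the substitution ZBTB5-S127A (S127A below, for the libraries so labelled), in which alanine replaces a serine of ZBTB5, a BTB and zinc finger transcription factor. Both groups had received TNFα, an inflammatory cytokine, with amino acids limited, and untreated libraries were not analysed here, so each comparison is between genotypes under that treatment. The series' design text asks how loss of this phosphorylation site bears on mTORC1 activation in inflammation. Whether the S127A cells came from 1 clone is not given in the sources used here, and the labels do not say that replicates came from separate cultures, so that p-values measure the spread between these libraries, which may be technical. Read depth cannot be had from TPM, and the SD over 3 libraries is the error given.

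Lysosomes are acidified by the V-ATPase, a rotary pump whose cytosolic V1 domain hydrolyses ATP and whose membrane-embedded V0 domain carries protons. Cathepsins are proteases that mostly work at the acidic pH so produced, LAMP proteins line the inner face of the membrane, mucolipins (MCOLN) and TPC channels (TPCN) release cations, and loss of CLN proteins causes neuronal ceroid lipofuscinosis. In many cells TFEB, TFE3 and MITF bind E-box motifs in the promoters of such genes, and in melanocytes the melanosome is an organelle related to the lysosome that uses the same pump. The V-ATPase is also part of the machinery through which lysosomal amino acids reach mTORC1.

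The 2 sets of libraries differed throughout the transcriptome, and most markers of the line they are labelled with were nearly lost from those of S127A. Of 10348 genes with a mean of at least 1 TPM over the 6 libraries, 90.0% passed the test at an adjusted p under 0.05 (limma on log2(TPM + 1), adjusted by Benjamini-Hochberg), 49.8% lower and 40.2% higher in S127A, and the groups did not overlap for 90.2%. Of the melanocyte markers that define B16F10, 14 of 14 were lower in S127A, and their summed level lay between 19718 and 19895 TPM in WT and between 109 and 118 TPM in S127A. DCT, an enzyme of melanin synthesis, was at 4057 to 4121 TPM in WT and 5.14 to 6.43 TPM in S127A, and SOX10, a melanocyte transcription factor, at 338 to 347 TPM and 0.48 to 0.71 TPM. GPNMB was lower but still present, at 3241 to 3396 TPM in WT and 86.2 to 89.9 TPM in S127A, where it supplied most of the sum. Pearson's r of log2(TPM + 1) across genes was 0.998 between libraries of the same group and 0.676 to 0.679 between libraries of different groups, as a description over genes that are not independent. Whether the S127A libraries come from B16F10 cells is not settled by these values, so an effect of the substitution and a difference between the cells themselves cannot be told apart in any comparison below. Of 6 fibroblast markers tested, 5 were higher and 1 lower, with sums of 16.2 to 17.2 TPM in WT and 301 to 313 TPM in S127A. COL1A2 supplied most of that sum (1.22 to 1.53 TPM in WT and 267 to 279 TPM in S127A). COL1A1 (0.53 to 0.69 TPM and 10.17 to 11.05 TPM) and PDGFRA (0.36 to 0.41 TPM and 5.72 to 6.13 TPM) also rose. POSTN was the marker that fell (6.74 to 8.38 TPM and 0.04 to 0.08 TPM). Of those below the minimum, COL3A1 (0 to 0.06 TPM and 1.08 to 1.36 TPM) and DCN (0 and 0.97 to 1.11 TPM) stood higher in S127A. LUM and THY1 stayed at no more than 0.07 TPM. Of 4 immune markers tested, 2 were higher and 2 lower (sums of 22.5 to 26.7 TPM in WT and 53.8 to 56.5 TPM in S127A). The monocyte marker CD14 was listed at 0 in WT and at 43.2 to 46.5 TPM in S127A, and MRC1 at 0 to 0.02 TPM and 1.74 to 2.30 TPM, while CD74 (15.3 to 18.9 TPM and 2.34 to 3.01 TPM) and CD68 (7.02 to 8.22 TPM and 4.40 to 5.16 TPM) were lower. AIF1 stood at 0 in all 6 libraries, PTPRC, CSF1R, ITGAM and FCGR1A at no more than 0.14 TPM, and the endothelial markers PECAM1, CDH5, KDR and TEK at no more than 0.16 TPM. KRT18, the single epithelial marker tested, was at 0 to 0.18 TPM in WT and 62.5 to 63.2 TPM in S127A. Other epithelial markers were below the minimum: KRT8 was at 0 in WT and 0.47 to 0.54 TPM in S127A. KRT19, KRT5 and CDH1 stayed at no more than 0.45 TPM. ZBTB5 itself stood at 15.9, 14.9 and 15.7 TPM in WT and 9.24, 8.24 and 9.21 TPM in S127A, and TPM does not show the substitution. The part of these marker shifts in the results below was not tested. In such bulk libraries fewer cells of a type and less RNA per cell cannot be told apart.

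Most lysosomal members were lower in S127A, and those that were higher were few but included the row with the highest TPM of the set in S127A. Of the 50 members 39 were abundant enough to be tested, and 30 were lower, 7 higher and 2 (LAMP1 and TPCN2) did not pass. The share called was close to that of all genes, so the direction and the size carry the description: 76.9% of the tested members were lower, against 49.8% of all tested genes. Lower by at least 2-fold (a log2 change of 1 or more) were 22 members (56.4%, against 19.9% of all tested genes), and higher by at least 2-fold were 4 (against 15.5% of all tested genes). The median log2 difference of the members was -1.28 and that of all tested genes -0.12. For 37 of the 39 tested members the WT and S127A values did not overlap, against 90.2% of all tested genes. The 7 members that rose were CTSV, CTSO, CLN3, ATP6V1G2, CTSW, MCOLN1 and TPCN1. The 11 members below the minimum were ATP6V1B1, ATP6V1C2, ATP6V1E2, ATP6V0A4, ATP6V0D2, CTSE, CTSG, CTSK, CTSS, LAMP3 and LAMP5. ATP6V1E2 and LAMP5 were listed at 0 in all 6 libraries, and apart from ATP6V0A4 the other members below the minimum never exceeded 0.63 TPM.

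**Figure D1:**
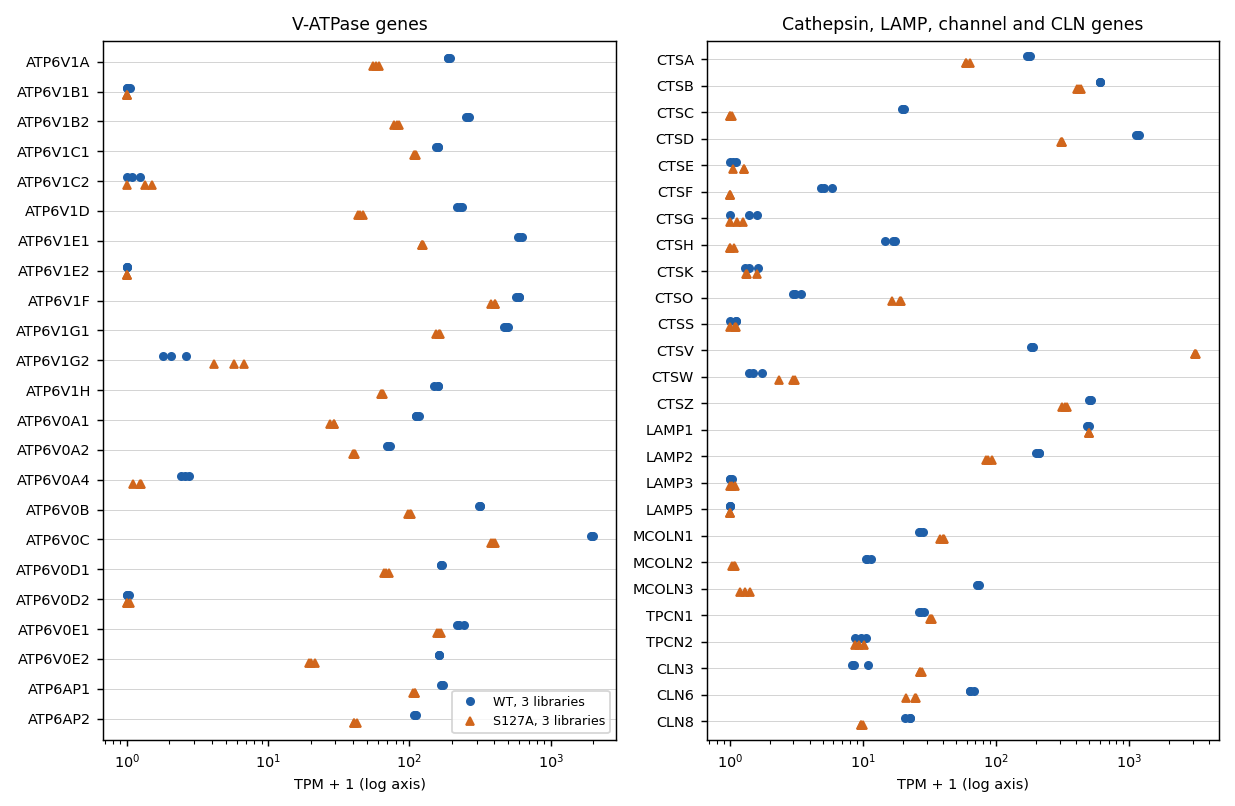
TPM + 1 of the members in every library on a log axis, with the V-ATPase genes on the left and the other members on the right. Circles are the 3 WT and triangles the 3 S127A libraries. Replicates lie close together for abundant genes, the pump genes sit to the left in S127A, and CTSV moves from 185 to 3148 TPM on average.

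The starts of several members carry an E-box of the kind that TFEB and its relatives are known to bind, and these genes did not all move one way. RefSeq promoters of GRCm38.p6, the patch release of the mm10 build named in the submitters' processing notes, were found for 36 members, in the 250 bases before the annotated start. The 6-base E-box CACGTG, which reads the same on both strands, was present in 9 of the 36 members (25%) and in 6.86% of the 27025 genes of the promoter table. Counted per promoter, the shares were 21.4% of 42 and 6.02% of 32851. For 33 of the 42 the bases after the start were found in an annotated transcript of the gene, and the shares use all 42. The promoter table was not limited to genes tested here, so these shares compare unlike sets, and their difference was not tested. The longer form TCACGTG, searched on both strands and contained in the first, was present in 7 members (19.4%, against 3.58%), and TCATGTG, the form found in many pigmentation genes, in 1 member, ATP6V0C (2.78%, against 3.72%). CLN3 held the full CLEAR palindrome, which extends TCACGTG on both sides and occurred in 0.27% of the genes of that table. These are matches of letters and not binding sites. Of the 9 genes with CACGTG, 6 were lower in S127A (ATP6V0B, ATP6V1A, CTSA, CTSD, CTSF and MCOLN2), 2 were higher (CLN3 and MCOLN1) and LAMP1 did not pass. Of the 18 tested members whose promoters lacked it, 15 were lower, 2 higher and 1 did not pass, and the difference between these counts was not tested. The stretches below, cut to bases outside annotated exons, are shown so that the spacing of the E-boxes can be compared between genes that moved differently, with CACGTG in capitals. They are written 5′ to 3′ on the strand of the gene, in the order LAMP1 (chr8:13159070-13159160, plus strand), ATP6V0B (chr4:117887334-117887395, minus strand), MCOLN1 (chr8:3500418-3500456, plus strand), CTSD (chr7:142388039-142388077, minus strand), ATP6V1A (chr16:44139355-44139420, minus strand), MCOLN2 (chr3:146150072-146150137, plus strand) and CTSF (chr19:4855056-4855121, plus strand).
LAMP1: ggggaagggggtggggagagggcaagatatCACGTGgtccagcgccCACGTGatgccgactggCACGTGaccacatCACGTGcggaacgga
ATP6V0B: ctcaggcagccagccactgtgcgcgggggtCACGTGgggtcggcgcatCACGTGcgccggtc
MCOLN1: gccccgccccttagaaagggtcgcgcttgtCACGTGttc
CTSD: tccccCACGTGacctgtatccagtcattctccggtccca
ATP6V1A: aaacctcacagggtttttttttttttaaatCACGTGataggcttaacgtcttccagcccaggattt
MCOLN2: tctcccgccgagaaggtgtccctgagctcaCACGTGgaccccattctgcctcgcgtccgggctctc
CTSF: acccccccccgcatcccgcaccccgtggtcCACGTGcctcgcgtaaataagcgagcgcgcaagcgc
LAMP1 had 4 E-boxes within the last 61 bases before its start, at -61, -45, -28 and -15, whereas ATP6V0B had 2 at -36 and -18. In MCOLN1 they began at -71 and -45 and in CTSD at -245 and -98, and the second of each fell in bases annotated as exon and is not shown. CLN3 (-149 and -121) and CTSA (-12) had theirs in annotated exons throughout. No promoter entry was matched for ATP6V1H, ATP6V1B2, ATP6V1G1, ATP6V1C1, ATP6V0A2, ATP6V0D2, CTSB, CTSE, CTSH, CTSV, CTSW, TPCN1 and CLN8, among others.

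**Figure D2:**
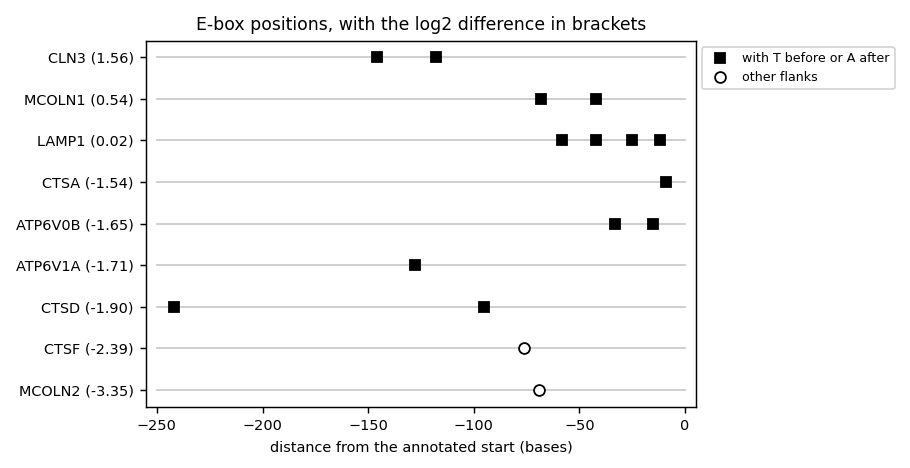
Positions of CACGTG in the 250 bases before the annotated start of the 9 members that hold it. The x axis is the distance from the start in bases, filled squares have a T before or an A after the motif and open circles have neither, and the log2 difference of each gene stands in brackets. The clusters near the start belong to LAMP1 (0.02), MCOLN1 (0.54) and ATP6V0B (-1.65).

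Transcripts of the pump were 3.0-fold lower in S127A when summed. The 23 ATP6V and ATP6AP genes together held 5973, 5959 and 5941 TPM in the WT libraries and 1962, 1997 and 2008 TPM in the S127A libraries (5958 ± 16.1 and 1989 ± 24.0, mean ± SD, n = 3). Of 18 tested, 17 were lower and 1, the minor isoform ATP6V1G2, was higher, with a median log2 difference of -1.50. TCIRG1, a V0 subunit whose symbol falls outside the rule, is in none of the counts and sums of this paragraph. It was higher in S127A (78.4 ± 0.622 to 96.5 ± 6.02 TPM). The sum over V1 genes was 2659 ± 28.7 TPM in WT and 2.57-fold lower in S127A, at 1035 ± 11.1 TPM. The sum over V0 genes was 3020 ± 41.8 and 805 ± 15.0 TPM, which is 3.75-fold lower. Without ATP6V0C, which alone held 1966 TPM in WT, the ratio for all pump genes was 2.49. Rescaling every library to the same table total gave 2.88 in place of 3.0, since table totals ran from 862949 to 864529 TPM in WT and from 830745 to 833332 TPM in S127A.

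In the V1 domain ATP6V1D and ATP6V1E1 fell most. ATP6V1D, the rotor shaft subunit on chromosome 12 (78840725 to 78861638, minus strand, mm10), stood at 233, 228 and 218 TPM in WT and at 42.4, 44.0 and 46.1 TPM in S127A. Its log2 change was -2.33 (SE 0.0408, adjusted p = 9.55e-13). ATP6V1E1, a peripheral stalk subunit, stood at 595, 585 and 632 TPM in WT and 122, 123 and 122 TPM in S127A (a change of -2.29 log2 units, SE 0.0332, adjusted p = 2.41e-13). The groups were far apart for both genes. ATP6V1G1, which pairs with the E subunit, went from 496, 467 and 486 TPM to 161, 165 and 154 TPM (a change of -1.59 log2 units).

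The subunits that form the catalytic ring fell to a like degree. ATP6V1A, which holds the ATP-hydrolysing site, stood at 192, 187 and 187 TPM in WT and 59.9, 56.7 and 54.5 TPM in S127A (a change of -1.71 log2 units). ATP6V1B2, its partner in the ring, went from 262, 249 and 260 TPM to 83.3, 77.5 and 80.6 TPM (a change of -1.66 log2 units). Its kidney-type paralogue ATP6V1B1 was at no more than 0.06 TPM in any library. ATP6V1H, a regulatory subunit, went from 147, 159 and 160 TPM to 61.7, 64.1 and 63.6 TPM (a change of -1.28 log2 units). Of these 3, each S127A value lay below every WT value.

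ATP6V1C1 and ATP6V1F fell least in the V1 domain. ATP6V1C1, the subunit released when V1 detaches from V0, stood at 160, 159 and 153 TPM in WT and at 111, 106 and 108 TPM in S127A (a change of -0.53 log2 units, SE 0.0323, adjusted p = 3.28e-08). ATP6V1F, a small rotor subunit, went from 572, 595 and 593 TPM to 377, 405 and 402 TPM (a change of -0.57 log2 units, SE 0.0340, adjusted p = 2.66e-08). The 95% confidence intervals of both lay between -0.65 and -0.46, and that of ATP6V1D ran from -2.42 to -2.24. ATP6V1G2, the neuronal G isoform, stood at 0.81, 1.04 and 1.61 TPM in WT and 4.73, 3.15 and 5.81 TPM in S127A (a change of 1.36 log2 units, SE 0.177, adjusted p = 2.45e-05). With a pseudocount of 5 or 0.1 the change was 0.63 or 1.90. ATP6V1G2 shares 144 of 2510 exonic bases with Nfkbil1 on the other strand. It supplied 0.239% ± 0.0849 of the G subunit TPM in WT and 2.79% ± 0.884 in S127A, so ATP6V1G1 carried nearly all of it in both groups.

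In the V0 domain the proteolipid genes of the proton-carrying ring fell by unequal amounts. ATP6V0C, the c subunit and the most abundant of the pump transcripts in WT, stood at 1995, 1979 and 1926 TPM in WT and 375, 390 and 402 TPM in S127A. Its log2 change was -2.33 (SE 0.0318, adjusted p = 1.61e-13). GENCODE lists 2 processed pseudogenes of this gene, and reads shared with them would make its level uncertain. ATP6V0B, the related c″ subunit whose promoter is shown above, went from 314, 318 and 310 TPM to 102, 100.2 and 96.5 TPM (a change of -1.65 log2 units). ATP6V0D1, which links the ring to the central stalk, went from 167, 166 and 170 TPM to 65.5, 70.8 and 67.8 TPM (a change of -1.29 log2 units), and its osteoclast-type paralogue ATP6V0D2 never exceeded 0.06 TPM.

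The makeup of the a subunit, the V0 part that directs the pump to different organelles, differed between the groups. ATP6V0A1 stood at 110, 116 and 111 TPM in WT and 28.4, 26.3 and 28.3 TPM in S127A (a change of -1.98 log2 units, SE 0.0421, adjusted p = 4.37e-12), and ATP6V0A2, the Golgi and endosome form, at 68.0, 69.5 and 72.2 TPM and 39.7, 40.1 and 39.2 TPM (a change of -0.80 log2 units). TCIRG1, the a3 isoform of lysosomes and osteoclasts, which falls outside the symbol rule, was higher in S127A, with 78.9, 77.7 and 78.7 TPM in WT and 90.0, 102 and 97.5 TPM in S127A (a change of 0.29 log2 units, adjusted p = 8.05e-05). Of the summed TPM of the a isoforms, ATP6V0A1 held 42.8% ± 0.86 in WT and 16.9% ± 1.19 in S127A. TCIRG1 held 29.9% ± 0.564 and 58.8% ± 1.81. ATP6V0A2 kept 26.7% ± 0.704 and 24.2% ± 0.787, and ATP6V0A4, the kidney form, held under 1% in each library, at 1.43 to 1.76 TPM in WT and 0.11 to 0.26 TPM in S127A. The sum over the a isoforms went from 262 ± 3.04 to 164 ± 5.25 TPM. The shares are descriptions and were not tested.

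A like shift was seen for the small e subunit. ATP6V0E2 stood at 161, 162 and 161 TPM in WT and 18.4, 19.2 and 20.5 TPM in S127A. It had the largest fall among the tested pump genes, with a log2 change of -3.0 (SE 0.0429, adjusted p = 2.22e-13). ATP6V0E1, which the mouse annotation calls Atp6v0e, went from 216, 241 and 223 TPM to 162, 157 and 166 TPM (a change of -0.48 log2 units, SE 0.0425, adjusted p = 8.15e-07), the smallest fall among them, and -0.32 with quantile normalization. ATP6V0E1 therefore made up 58.4% ± 1.26 of e subunit TPM in WT and 89.3% ± 0.428 in S127A.

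**Figure D3:**
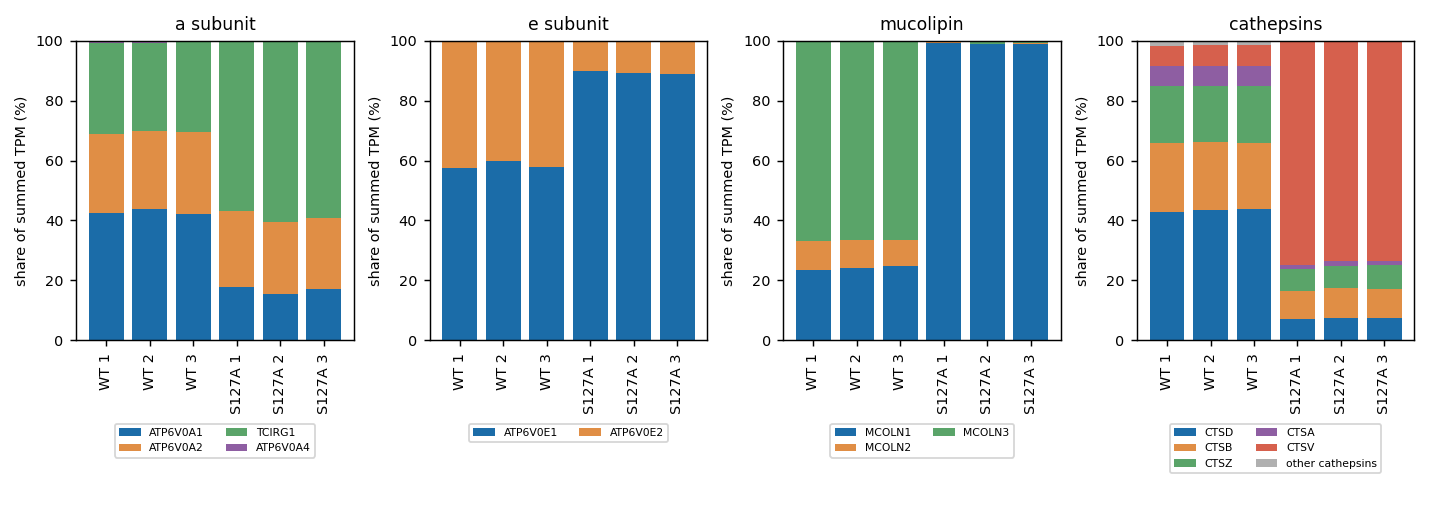
Share of summed TPM, in percent, held by each paralogue in each of the 6 libraries, for the a and e subunits of V0, the mucolipins and the cathepsins. TCIRG1 takes 58.8% of the a subunit in S127A against 29.9% in WT, MCOLN1 99.0% of the mucolipins against 24.2%, and CTSV 73.6% of the cathepsins against 6.92%.

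With isoforms summed, the order of the pump's subunits changed between the groups. In WT the c subunit led, followed by E (604 ± 24.6 TPM), F (587 ± 13.1) and G (484 ± 14.4), and E and F differed by less than their spread. In S127A F (395 ± 15.3 TPM) and c (389 ± 13.6) came first and did not differ beyond their spread. Across the 13 V1 and V0 positions, with TCIRG1 counted in a, the ratio of WT to S127A ranged from 1.45 for C to 5.13 for D. The median was 2.95. The accessory proteins both fell. ATP6AP1, which helps to assemble V0, went from 173, 167 and 168 TPM to 106, 109 and 109 TPM (a change of -0.64 log2 units). ATP6AP2, the prorenin receptor, went from 110, 107 and 111 TPM to 41.9, 39.3 and 39.9 TPM (a change of -1.42 log2 units).

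Among the cathepsins, the most abundant WT proteases fell while the row named CTSV rose. CTSD, the main aspartic protease of the lysosome (chromosome 7, 142375911 to 142388038, minus strand, mm10), stood at 1130, 1163 and 1183 TPM in WT and 304, 313 and 311 TPM in S127A. Its log2 change was -1.90 (SE 0.0281, adjusted p = 2.75e-13). A neighbouring gene model on the same strand, Gm49369, shares 808 of the 2351 exonic bases of CTSD, so reads of the 2 cannot be fully told apart. CTSA, the protective protein of neuraminidase, went from 171, 179 and 177 TPM to 58.8, 62.7 and 58.4 TPM (a change of -1.54 log2 units). CTSB and CTSZ, cysteine proteases with carboxypeptidase activity, fell less. CTSB went from 602, 601 and 599 TPM to 401, 431 and 415 TPM (a change of -0.53 log2 units, SE 0.0308, adjusted p = 2.08e-08), and CTSZ from 503, 498 and 515 TPM to 311, 329 and 340 TPM (a change of -0.63 log2 units). CTSB shares 774 of 6051 exonic bases with Fdft1 on the other strand. Of the 4715 exonic bases of CTSA, 324 are shared with Neurl2 and 495 with Pltp, also on the other strand. The strand setting of the counting is not given in the sources used here.

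CTSC, CTSH and CTSF, of low to moderate level in WT, were almost absent from the S127A libraries. CTSC, the dipeptidyl peptidase that activates granule serine proteases, stood at 19.3, 18.6 and 19.0 TPM in WT and was listed at 0.03, 0 and 0 TPM in S127A (a change of -4.31 log2 units, adjusted p = 3.06e-13). CTSH, an aminopeptidase, went from 15.7, 13.7 and 16.5 TPM to 0, 0.08 and 0 TPM (a change of -3.99 log2 units, adjusted p = 4.06e-12). CTSF went from 4.86, 4.07 and 3.86 TPM and was listed at 0 in the 3 S127A libraries (a change of -2.39 log2 units, adjusted p = 4.14e-10). The log2 changes of these genes depend on the pseudocount, so no fold is given: with a pseudocount of 5 or 0.1 in place of 1 they were -2.26 and -7.45 for CTSC, -2.01 and -6.98 for CTSH and -0.89 and -5.44 for CTSF.

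The row CTSV had the largest rise of all members. It stood at 181, 185 and 188 TPM in WT and 3180, 3145 and 3120 TPM in S127A, 17.0-fold higher (a change of 4.08 log2 units, SE 0.0262, adjusted p = 2.64e-15). The symbol is that of a human cathepsin close to cathepsin L. Neither GENCODE nor RefSeq has a mouse gene of that name (0 entries in each), both list Ctsl, and no row named CTSL was among the members, so which mouse transcript the row holds was not settled and the row is called by its symbol here. CTSV alone set the direction of the cathepsin total. The 14 cathepsin rows summed to 2632, 2666 and 2706 TPM in WT and 4273, 4301 and 4266 TPM in S127A, 1.60-fold higher, whereas without CTSV the sums were 2483 ± 33.4 and 1132 ± 33.7 TPM, 2.19-fold lower. CTSD held 43.4% ± 0.431 of cathepsin TPM in WT and 7.23% ± 0.0938 in S127A.

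Other cathepsins that rose were of low level. CTSO stood at 2.45, 2.06 and 1.99 TPM in WT and 15.6, 18.3 and 17.9 TPM in S127A, 7.96-fold higher (a change of 2.53 log2 units, SE 0.0823, adjusted p = 1.49e-10). CTSW, known from cytotoxic lymphocytes, stood at 0.4, 0.73 and 0.49 TPM in WT and 2.0, 1.34 and 2.07 TPM in S127A (a change of 0.86 log2 units, SE 0.121, adjusted p = 4.63e-05). With a pseudocount of 5 or 0.1 the changes were 1.63 and 2.94 for CTSO and 0.30 and 1.58 for CTSW. The proteases typical of macrophages, osteoclasts and granulocytes, CTSS, CTSK and CTSG, stayed at or below 0.63 TPM in all libraries, in which the immune markers moved in both directions as given above (CD14 and MRC1 higher, CD74 and CD68 lower, AIF1 at 0). In all, 7 of 10 tested cathepsins were lower and 3 higher, against 49.8% lower and 40.2% higher over all tested genes.

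The LAMP glycoproteins parted. LAMP1, the most abundant of them and the gene whose promoter held 4 E-boxes, stood at 491, 482 and 497 TPM in WT and 494, 495 and 501 TPM in S127A, with groups that overlapped. Its log2 difference was 0.02 (95% confidence interval -0.04 to 0.08, adjusted p = 0.489). It was called higher with TMM factors (0.11, adjusted p = 0.00157), quantile normalization (0.15, adjusted p = 0.000217) and a common table total (0.07, adjusted p = 0.0196). Over 16 alternatives its adjusted p lay between 0.000217 and 0.821. LAMP2, the receptor of chaperone-mediated autophagy, stood at 209, 199 and 210 TPM in WT and 91.6, 85.3 and 83.5 TPM in S127A (a change of -1.24 log2 units, SE 0.0402, adjusted p = 1.44e-10). LAMP2 made up 29.6% ± 0.29 of the TPM of both in WT and 14.9% ± 0.692 in S127A. LAMP3, of dendritic cells, and LAMP5, of neurons, were at no more than 0.1 TPM.

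The cation channels gave the largest fall among members and also small rises. MCOLN3, a mucolipin first known from the varitint-waddler mouse, stood at 71.8, 70.6 and 73.3 TPM in WT and 0.19, 0.42 and 0.30 TPM in S127A (a change of -5.81 log2 units, SE 0.0720, adjusted p = 8.27e-14). MCOLN2 lies beside it on chromosome 3 (MCOLN3 at 146117450 to 146141806 and MCOLN2 at 146149833 to 146195513, both on the plus strand, mm10). It went from 10.5, 9.56 and 9.76 TPM to 0.04, 0.07 and 0.10 TPM (a change of -3.35 log2 units, SE 0.0718, adjusted p = 4.70e-12). With a pseudocount of 5 or 0.1 the changes were -3.86 and -7.52 for MCOLN3 and -1.56 and -5.90 for MCOLN2. MCOLN1, the mucolipin found in most cells and mutated in mucolipidosis type IV, was higher, with 25.2, 25.7 and 27.4 TPM in WT and 36.7, 39.6 and 39.1 TPM in S127A (a change of 0.54 log2 units, SE 0.0492, adjusted p = 1.06e-06). MCOLN1 thus made up 24.2% ± 0.696 of mucolipin TPM in WT and 99.0% ± 0.304 in S127A, within a total that went from 108 ± 2.37 to 38.8 ± 1.69 TPM. The TPC channels moved little. TPCN1 stood at 27.9, 25.4 and 26.4 TPM in WT and 30.7, 32.1 and 31.7 TPM in S127A (a change of 0.24 log2 units, SE 0.0474, adjusted p = 0.00066). TPCN2, which tunes melanosome pH, stood at 7.75, 8.63 and 9.52 TPM and 7.69, 8.32 and 9.13 TPM, and the groups overlapped (log2 difference -0.04, 95% confidence interval -0.22 to 0.15, adjusted p = 0.679).

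**Figure D4:**
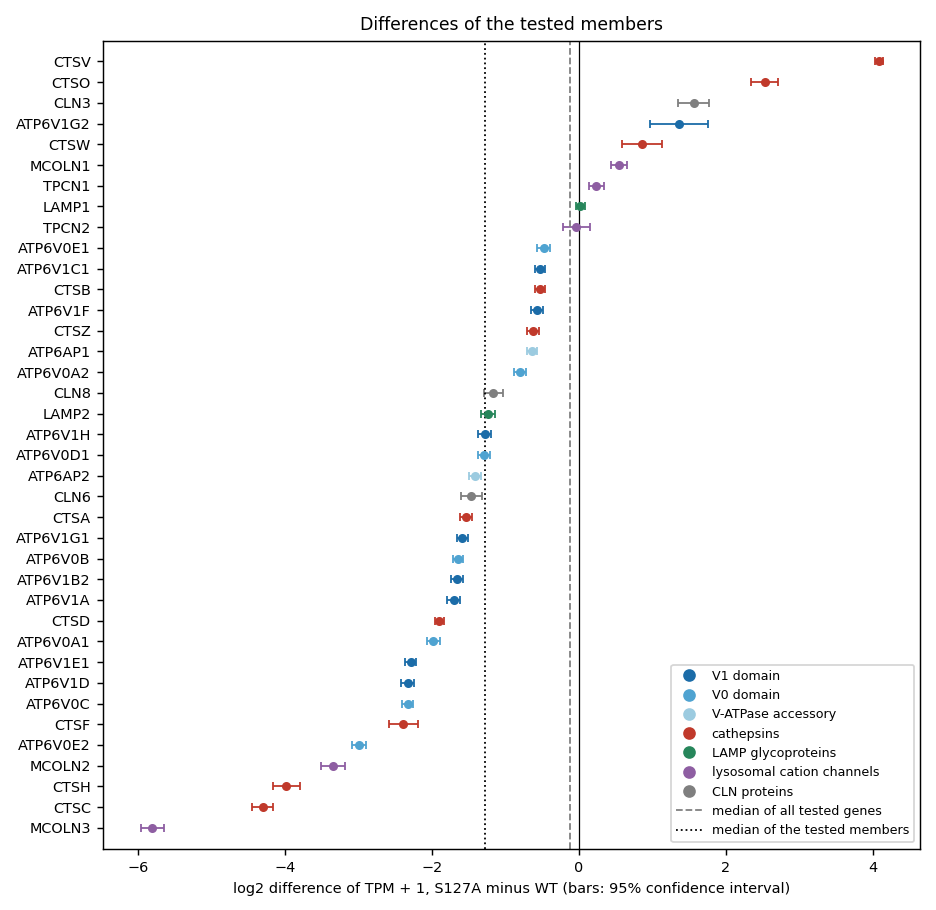
Log2 difference of TPM + 1, S127A minus WT, of tested members in order of size, with 95% confidence intervals as bars and classes in colour. The dashed line is the median of all tested genes (-0.12) and the dotted line that of the members (-1.28). MCOLN3 (-5.81) and CTSV (4.08) stand at the ends.

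Among the CLN proteins CLN3 rose, and CLN6 and CLN8 fell. CLN3, a membrane protein mutated in the juvenile form of the disease, stood at 7.31, 9.92 and 7.55 TPM in WT and 25.8, 25.7 and 26.8 TPM in S127A, 3.16-fold higher (a change of 1.56 log2 units, SE 0.0929, adjusted p = 2.66e-08). It shares 442 of 5781 exonic bases with Apobr on the other strand. CLN6 and CLN8, which work together in the endoplasmic reticulum to send lysosomal enzymes on, both fell by more than 2-fold. CLN6 went from 63.2, 66.8 and 62.2 TPM to 20.2, 24.0 and 23.6 TPM (a change of -1.46 log2 units), and CLN8 from 21.5, 19.8 and 21.4 TPM to 8.58, 8.66 and 9.03 TPM (a change of -1.16 log2 units).

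Other genes of the lysosome, from lists outside the symbol rule, leaned the same way. Of 43 soluble hydrolases and activators tested, 33 were lower, 4 higher and 6 did not pass, with a median log2 difference of -0.93. The smallest adjusted p-values belonged to EPDR1 (53.9 ± 0.457 TPM in WT and listed at 0 in the 3 S127A libraries), the acid lipase LIPA (128 ± 1.76 to 11.6 ± 0.416 TPM), the glucuronidase GUSB (216 ± 4.87 to 41.9 ± 1.03 TPM) and the thioesterase PPT2 (262 ± 4.07 to 44.5 ± 2.29 TPM). Of 32 other membrane proteins tested, 25 were lower and 5 higher, with a median of -0.64. HGSNAT, the acetyltransferase of heparan sulfate breakdown, went from 475 ± 5.9 to 55.0 ± 1.82 TPM, and LAPTM4B, GPR137B and TTYH3 had log2 changes of -1.74, -1.54 and -2.60. Of 23 genes for mannose 6-phosphate sorting and delivery, 20 were lower and 1 (AP1S1) higher, with a median of -0.54. The sorting receptors SORT1 (91.5 ± 2.13 to 0.287 ± 0.0231 TPM) and IGF2R (90.0 ± 1.88 to 19.6 ± 0.507 TPM) were among those with the smallest adjusted p-values, with GGA2 and AP1B1. These counts stand beside 49.8% lower and a median of -0.12 over all tested genes.

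Genes that assemble or bind the pump were lower for 10 of 12 tested (49.8% of all tested genes), with a median log2 difference of -1.14 (-0.12 over all tested genes). DMXL2, a subunit of the complex that rejoins V1 and V0, went from 73.7, 73.0 and 69.5 TPM to 4.71, 5.42 and 4.90 TPM (a change of -3.61 log2 units, SE 0.0566, adjusted p = 4.25e-13). Its paralogue DMXL1, named after its values were seen, was higher (14.8 ± 0.543 to 20.9 ± 0.987 TPM). With TCIRG1, a V0 subunit that was counted in this list, DMXL1 made up the 2 that rose. TBC1D24, TMEM9 and the assembly factor TMEM199 fell, the last from 83.0 ± 0.841 to 29.7 ± 2.97 TPM.

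In a list made for endogenous inhibitors of cathepsins most genes rose. Of 5 tested genes, cystatins and others, 4 were higher and 1 lower, with a median log2 difference of 0.55, against 40.2% higher, 49.8% lower and a median of -0.12 over all tested genes. Cystatin C (CST3) stood at 294, 299 and 308 TPM in WT and 516, 563 and 564 TPM in S127A (a change of 0.86 log2 units), and cystatin B (CSTB) at 327 ± 13.8 and 480 ± 9.59 TPM. SERPINB6, a serpin whose mouse counterparts are several close paralogues, went from 131 ± 2.47 to 699 ± 8.54 TPM. CST6, an inhibitor of legumain and cathepsins, was the inhibitor that fell, from 20.5 ± 0.307 to 0.963 ± 0.122 TPM. LXN (latexin), named after its values were seen, went from 55.5 ± 1.76 to 80.2 ± 7.91 TPM. It is known as a carboxypeptidase inhibitor, so the count covers more than cathepsin inhibitors.

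The transcription factors of the MiT/TFE family and the genes that control them were lower for 9 of 10 tested (49.8% of all tested genes), with a median log2 difference of -1.01 (-0.12 over all tested genes). TFE3 stood at 58.8, 59.8 and 59.6 TPM in WT and 41.4, 44.4 and 42.0 TPM in S127A (a change of -0.47 log2 units, adjusted p = 4.96e-07). TFEB went from 11.9, 11.1 and 13.4 TPM to 4.74, 6.41 and 6.27 TPM (a change of -0.96 log2 units, adjusted p = 5.14e-06). Both were named after their values were seen, as was ZKSCAN3, the gene of the list that was higher (33.8 ± 0.643 to 39.7 ± 2.73 TPM). MITF, RRAGD, PPARGC1A and FLCN had the smallest adjusted p-values of the list. FLCN, the folliculin that helps mTORC1 to retain TFEB and TFE3 in the cytosol, went from 62.5 ± 1.71 to 18.6 ± 0.622 TPM. Since the list pools the factors with genes that hold them back, its count gives no direction of their activity. MITF stood at 134 to 154 TPM in WT and 7.71 to 8.68 TPM in S127A, the libraries in which most melanocyte markers were nearly lost.

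**Figure D5:**
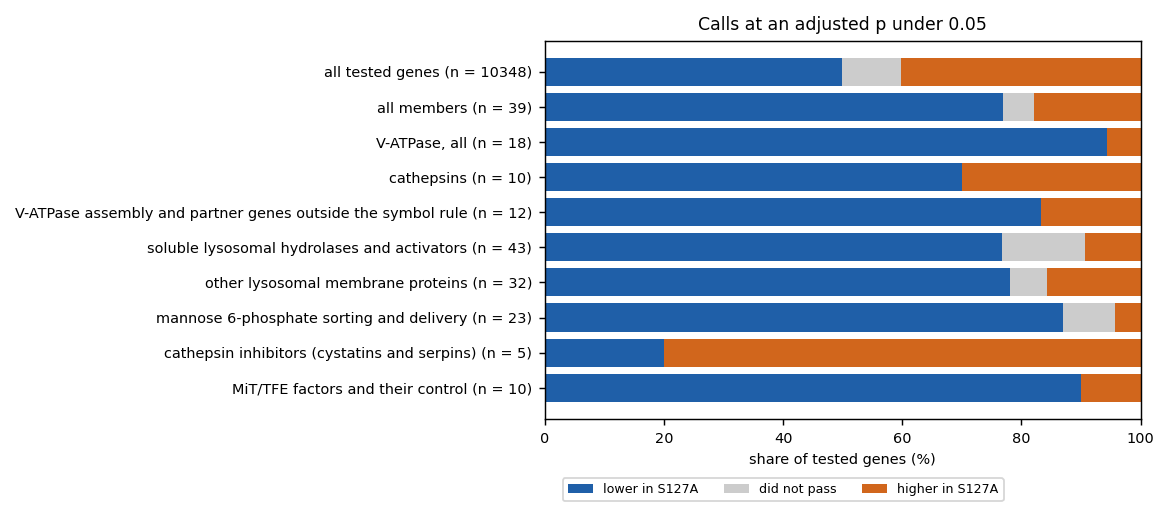
Share of tested genes, in percent, that were lower, did not pass or were higher in S127A, for all tested genes, the members, the pump genes, the cathepsins and 6 lists of related genes, with the number tested in brackets. The lower share was 49.8% for all tested genes, 76.9% for the members and 94.4% for the pump genes, which leave out TCIRG1. Of 5 genes in the cathepsin inhibitor list, which also holds LXN, 1 was lower.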

How the data were processed

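RNA-seq libraries labelled as TNFα-treated B16F10 cells, 3 WT and 3 S127A, were grouped and numbered from their titles. The authors deposited 1 table of TPM per upper-case gene symbol, with 1 column per library, per the file headers. The submitters' processing notes name mm10 as the genome build. Which aligner, quantifier, annotation and strand option were used is not given in the sources used here, nor is the way mouse genes received human-style symbols.

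Genes with a mean of at least 1 TPM over the 6 libraries were transformed as log2(TPM + 1) and compared in R 4.3.3 by limma 3.58.1 (mean-variance trend, genotype only, two-sided, Benjamini-Hochberg over 10348 genes, threshold 0.05). Such differences understate the change of low genes. No count model was run. The fit was tested on simulated data.

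The 50 members and the companion lists were chosen with earlier results of these data known. 1 member is counted but not reported here. The others are named, with values per library for those called higher, called at 2-fold or more with a group mean of 5 TPM, the main isoform of their pump position or the most abundant of their class. Up to 4 genes of each companion list are named by adjusted p. TCIRG1, AP1S1, DMXL1, LXN, ZKSCAN3, TFEB, TFE3, SOX10 and the markers below the minimum were named after their values were seen. CD68 stands in a lysosomal and an immune list, TMEM9 in the pump partner and membrane lists and NAGPA in the hydrolase and sorting lists, and each counts in both. Coordinates are from GENCODE M21 (mm10, 49 of 50 members matched) and promoters from RefSeq (GRCm38.p6). For 16 members some exonic bases overlap another gene. Python 3.11.15 with pandas 2.3.3 and numpy 2.4.6 gave sums, shares and figures.

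The alternatives changed 1 choice each: the pseudocount (0.1 or 5), the filter (none, or a mean of at least 5 TPM), the scaling (TMM factors computed on TPM without weights, quantile normalization, a common table total), the fit (no trend, robust hyperparameters, a replicate block) or the libraries (each of the 6 left out).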

Additional observations from a re-analysis of the deposited data

How the results depend on the processing

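Of 39 tested members, 38 kept their call under each of the 16 alternatives that tested them, and LAMP1 was the exception: it passed as higher with TMM factors, quantile normalization and a common total, as given with its values. TPCN2, never called, ran from -0.10 to 0.11 on the log2 scale. The number of members called lower ran from 28 to 31 and called higher from 5 to 8. The number lower by at least 2-fold ran from 20 to 23 and higher by at least 2-fold from 3 to 5. The count of 31 came with no filter, which added ATP6V0A4 (a change of -1.10 log2 units, adjusted p = 2.79e-06). Quantile normalization moved the median of all tested genes from -0.12 to -0.01 and TMM factors moved it to -0.02. With the replicate block 30 members were lower and 7 higher, as without it. Deviations of same-numbered libraries from their group means correlated at 0.12, 0.02 and 0.03 across genes. For libraries with different numbers the values ran from -0.08 to 0.05. Deviations of 3 libraries from their own mean are not independent, so these values do not settle whether the numbers pair the libraries. The main fit took them as unpaired. Hydrolases called higher numbered 7 with quantile normalization, against 4. Among fibroblast markers 3 were higher and 0 lower at a mean of at least 5 TPM, and 7 higher and 2 lower with no filter. Immune markers called higher numbered 1 at that mean. With no filter, epithelial and endothelial markers called higher numbered 4 and sorting genes called higher 2. Depth is unknown, so the counting error of levels under about 1 TPM cannot be given, and the 3 libraries of each group limit the precision.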
